A study of Mus musculus with 4 samples.

Results

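In Brg1 knockout mouse embryonic stem cells, most of the called sites of topoisomerase IIα (TopoIIa) activity were weak and lay far from any site called in wild-type cells. These weak distant peaks were taken as the knockout peaks on chromosomes 1 to 19 that scored under 100 and lay more than 10 kb, edge to edge, from every wild-type peak. By this rule 2633 of the 4622 knockout peaks (57.0%) were members. They came from 4200 autosomal knockout peaks of any score, of which 65.7% were distant, and from 3871 that scored under 100, of which 68% were distant. Positions this far from every wild-type peak made up 87.6% of the autosomal length between first and last peaks, a larger share than either. The members were selected on measured values, the score and the distance to wild-type peaks, so both are given only as a description and nothing is read from these shares.

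TopoIIa cuts both strands of a DNA duplex, passes another duplex through the break and reseals it, which removes tangles and supercoils and separates sister chromatids at mitosis. Etoposide stops the resealing step, so that the enzyme stays covalently bound to the DNA it has cut and can be pulled down with it. Brg1 is the ATPase of BAF (mammalian SWI/SNF) chromatin remodelling complexes, which move or evict nucleosomes.

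All groups used 1 embryonic stem cell line with floxed Brg1 alleles (Brg1f/f) and actinCreER, a Cre recombinase that tamoxifen activates. The line had been infected with V5-tagged human TopoIIa, and the mouse enzyme had been knocked down with a short hairpin RNA, so that both genotypes carried the tagged human enzyme. Tamoxifen for 24 h gave the Brg1-/- cells and ethanol for 24 h the wild-type cells, followed in each case by 48 h in growth medium and 10 min of 100 µM etoposide. Each genotype contributed 1 library of DNA pulled down with an anti-V5 antibody and 1 input library, 4 samples in all. The peak lists hold no measure of Brg1, and its loss is known only from the labels. Tamoxifen and Brg1 loss cannot be told apart in this design.

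The data described here are 2 lists of peaks in the mouse build mm9, with 16591 wild-type and 4622 knockout peaks, each peak carrying a position and the authors' score. The number of reads in each library is unknown, and the inputs were not analysed here. With 1 library per genotype there is no replicate error and no p-value. All intervals are 95% intervals. They cover counting error only, with each peak taken as independent. No genome or annotation of build mm9 was used here, so sites are given by position, with no gene names and no sequence.

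The weak distant peaks were narrow and closely alike in width. Their median width was 140 bp (interval of the median 139 to 141 bp), with an interquartile range of 128 to 156 bp. Widths ran from 54 to 2824 bp, with 96.4% of the peaks (2537) under 300 bp, the approximate size at which the library fragments were selected. Together the 2633 peaks covered 411 kb. The most common width was 145 bp, held by 103 peaks.

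Distance from wild-type sites made little difference to width among weak knockout peaks. The 711 weak autosomal knockout peaks that overlapped a wild-type peak had a median width of 141 bp (140 to 143 bp). Those 1 bp to 10 kb away, 527 peaks, had a median of 138 bp (137 to 140 bp). The 262 weak distant peaks on X, which the rule leaves out, had a median of 144 bp (140 to 146 bp). By contrast, the 127 autosomal knockout peaks that were as distant but scored 100 or more were wider, with a median of 296 bp (263 to 328 bp), and the autosomal wild-type peaks had a median of 2166 bp (2153 to 2177 bp). Narrowness thus went with the weak knockout peaks in general, at any distance, and was not particular to those far from wild-type sites.

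The widest members stood apart from this narrow class. The widest (2824 bp, score 78.79) was on chromosome 8 from 19757802 to 19760625, and no wild-type peak was nearer than 404 kb. Next came chromosome 11 from 3026940 to 3028989 (2050 bp, score 78.94), 160 kb away, and chromosome 14 from 45290872 to 45292237 (1366 bp, score 50.84), 346 kb away.

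Scores of the members crowded the lower limit of the list. The median was 56.91 (interquartile range 53.82 to 63.16), and the 5 lowest lay between 50.02 and 50.08. At the upper limit the change was gradual, with 39 members scoring 90 to 100 and 38 distant peaks scoring 100 to 110. The 5 members just inside this limit scored 98.97 to 99.99 and the 5 peaks just outside it 100.2 to 100.83. At the distance limit the 5 nearest members lay 10.005 to 10.159 kb from a wild-type peak, and the 5 weak peaks just short of it lay 9.889 to 9.965 kb away. There were 23 members 10 to 11 kb away and 29 weak peaks 9 to 10 kb away.

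Many members had exactly the same score. The 2633 peaks held 821 distinct scores, and 2127 peaks (80.8%, 79.2 to 82.3%) shared their printed score with at least 1 other member. In 1649 peaks (62.6%) both the score and the width were shared with another member. The share of tied peaks was 58.9% among the weak peaks overlapping wild-type peaks, 66.03% among those within 10 kb and 18.9% among the distant peaks scoring 100 or more. It was 83.8% among all weak autosomal knockout peaks, members included, and 80.8% among the autosomal wild-type peaks scoring under 100. Ties were thus not particular to the members. This share depends on the length of the list, because a longer list holds more possible partners, so the shares of lists of unequal length are not set against each other.

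Ties came in 2 main kinds. In the first kind a score belonged to a single width. The score 52.24 was held by 63 members on 18 chromosomes, all of them 145 bp wide, such as chromosome 1 from 48422011 to 48422155. The score 52.46 was held by 56 members, all 144 bp wide, and 53.12 by 54 members, all 141 bp wide. In the second kind a score was held at many widths. The most frequent score of all, 55.73, was held by 84 members of 43 different widths, from 110 to 169 bp, on 17 chromosomes, such as chromosome 1 from 10524622 to 10524760 (139 bp). Of the 51 scores held by at least 10 members, 22 belonged to a single width. The others were not all of the second kind. The score 52.68, for example, was held by 49 members at only 3 widths, with a median and a maximum of 143 bp.

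Both kinds of tie were compared with the way a peak caller of this type scores a peak. MACS, as background, compares the reads in a peak with an expected count and scores the peak by the tail of a Poisson distribution, taking the expected count from a genome-wide rate or from reads around the peak, whichever is higher. The deposited scores were therefore compared with −10 log10 of the Poisson probability of exceeding a whole count k. At a single rate of 6.39 counts per kb of peak width, 1437 members (54.6%, 52.7 to 56.5%) had exactly such a score, within 0.006. At 8 other rates, 5 to 20% away, at most 0.0517% of the weak autosomal knockout peaks matched. Among these 1437 peaks 21 were narrower than 98 bp and had the score of a 98 bp peak. On all chromosomes, 35 of the 221 weak knockout peaks narrower than 98 bp had such a score, against 4 at the next best width. The smallest width used in the scoring was therefore taken as 98 bp, although most of these narrow peaks did not match it.

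A further 267 members (10.1%) had a score that did not depend on their width. Their expected counts were whole multiples of 0.371, from 2 to 6 steps, at or above the genome-wide rate for their width. With 3 steps, an expected count of 1.11, there were 129 members, and 84 of them made up the score 55.73. Another 454 members (17.2%) had scores at local rates above the genome-wide rate of 17.2 steps per kb. The local rates were a whole number of the same steps per kb, from 18 to 40. Of these members, most had 18 steps (137 members) or 19 steps (107). Among the weak knockout peaks of all chromosomes, X included, 1942 were off the genome-wide rate. Of these, 469 matched the fixed steps, against 7 to 18 when the steps were shifted by fractions of a step. Of the 1473 then left, 667 matched the steps per kb, against 49 to 84 when shifted, so some of these matches are accidental. The remaining 475 members (18.04%) matched none of these rates. No fixed count above 6 steps and no local rate outside 18 to 40 steps per kb was tried. The unmatched share here and below therefore includes any score at rates beyond those limits. Of the 2127 tied members, 63.9% were at the genome-wide rate, 12.5% at the fixed steps and 12.98% at the local rates, while 227 (10.7%) matched none of them.

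**Figure D1:**
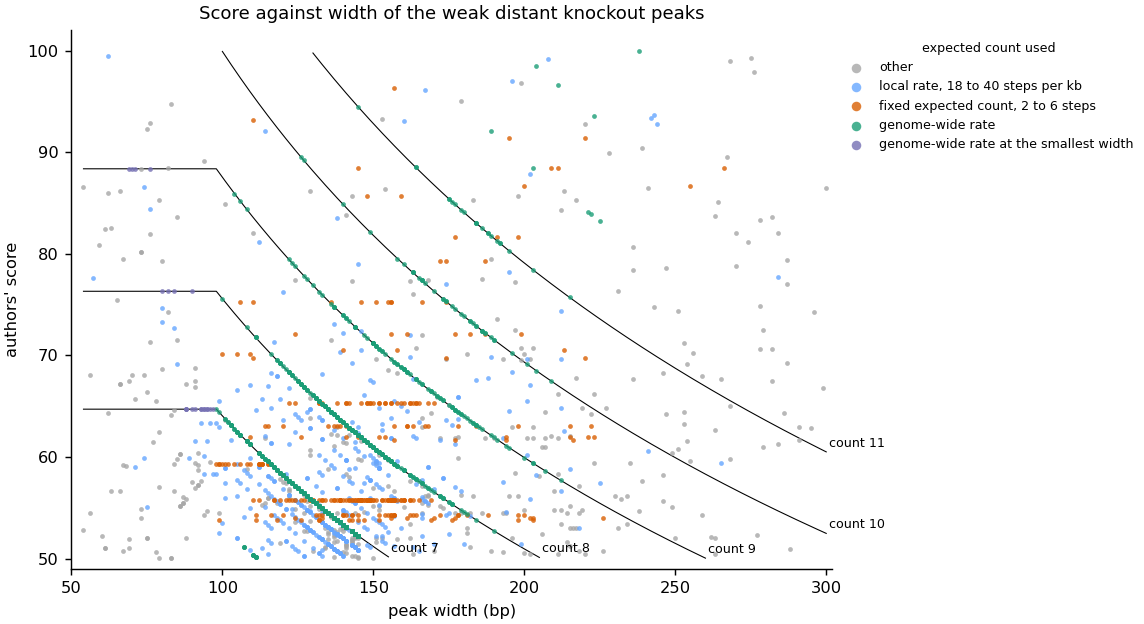
The authors' score (vertical axis) is plotted against peak width in bp (horizontal axis) for the weak distant peaks up to 300 bp wide, 1 point per peak, coloured by the expected count that gives its score. The black lines are the Poisson scores at 6.39 counts per kb for counts of 7 to 11, flat below 98 bp, and 1437 of the 2633 peaks lie at such a rate, while the 84 peaks at the score 55.73 form the longest horizontal row.

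Read this way, most weak distant peaks rested on very few reads. Among the 1437 peaks at the genome-wide rate, 924 (64.3%) had a count of 7, 324 had a count of 8 and 106 a count of 9, and the highest count was 14. The count of reads may be this number or 1 more, depending on how the tail was defined. A count of 7 came with widths of 88 to 145 bp (median 135 bp), a count of 8 with 80 to 190 bp (median 145 bp) and a count of 9 with 69 to 212 bp (median 160 bp). No peak with a count of 7 was wider than 145 bp, where the score had fallen to 52.24, although this count would score at least 50 up to a width of 155 bp. Over all 1437 peaks at the genome-wide rate the median expected count was 0.882, and the count was a median of 8.36 times the expected one. Over all 2158 members whose score could be read, 1698 (78.7%) had a count of at most 8 and 2038 (94.4%) of at most 10. With counts this low a single count moved the score far: at an expected count of 1.11 a count of 8 gave the score 55.73 and a count of 9 gave 65.32, held by 32 members.

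Weak knockout peaks nearer to wild-type sites were partly alike in this respect. The genome-wide rate gave the score of 53.4% (49.7 to 57.2%) of those overlapping a wild-type peak and 58.8% (54.5 to 63.1%) of those within 10 kb, with a median count of 7 in each. Those overlapping a wild-type peak nevertheless had a higher median score, 61.53, and differed in the rest: 25.9% of them matched none of the rates and 10.1% a local rate, against 18.04% and 17.2% of the members. Among the distant peaks scoring 100 or more the share was 22.0% (15.2 to 30.3%), with a median count of 14.5.

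The wild-type list was scored at another rate and on another width scale. Its genome-wide rate was 3.32 counts per kb, so that the knockout rate was 1.93 times as high. Its smallest width, inferred in the same way, was 1052 bp, which 63 of the 73 narrower wild-type peaks matched. The knockout list had 98 bp, a ratio of 10.7. At that rate lay 6562 of the 7539 autosomal wild-type peaks that scored under 100 (87.0%, 86.3 to 87.8%). Their counts ran from 15 to 38 with a median of 22, at a median width of 1900 bp and 3.53 times the expected count. A wild-type peak and a weak distant knockout peak of equal score therefore differed in what they were made of: many reads at a modest excess over a wide region against a few reads at a large excess over a short one. How the caller was set and which control it used is not known here, and the part of the calling in the difference between the lists was not tested.

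Chromosomes 8 and 12 differed from the other autosomes in how their peaks were scored. On chromosome 8 the genome-wide rate gave the score of 33.6% (25.9 to 41.9%) of the members and on chromosome 12 of 29.9% (22.5 to 38.0%), against 48.6 to 65.2% on the other 17 autosomes. Pooled, the share was 31.7% (26.4 to 37.4%) of 287 members on these chromosomes and 57.4% (55.3 to 59.4%) of 2346 members elsewhere. These chromosomes were pooled for having the lowest shares of all autosomes, and the pooled intervals do not allow for that choice. Members that matched no rate made up 35.2% (29.7 to 41.0%) on chromosomes 8 and 12 and 15.9% (14.5 to 17.5%) elsewhere. Weak knockout peaks on or near wild-type sites showed the same, with 36.1% and 34.1% at the rate on chromosomes 8 and 12 against 44.1 to 75% elsewhere. So did the wild-type list, which belongs to another library: 52.9% and 42.9% of its weak peaks lay at its genome-wide rate on these chromosomes, against 89.0 to 94.1% on the others. The median width was 140 bp both on chromosomes 8 and 12 and elsewhere. Copy number, control coverage and other properties of these chromosomes were not tested.

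Placement was next compared with a random even spread. The rule itself keeps members away from wild-type peaks, so the spread was taken over the eligible length, the positions more than 10 kb from any wild-type peak from the first to the last peak of each chromosome. This was 2112 of 2411 Mb (87.6%), with 1.25 members per eligible Mb. Expected numbers keep each chromosome's own number of members. Unmappable sequence was not removed from it.

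Over most of the genome the members stood alone. The median spacing to the next member on the chromosome was 526 kb (interquartile range 173 to 1261 kb), and the longest was 11426 kb. With neighbours joined at gaps of at most 10 kb, 2269 members (86.2%) were alone, 130 pairs, 10 triples and 1 run of 4 held 294, and 3 dense groups held 70.

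Short spacings were nevertheless more frequent than an even spread gives. Gaps of at most 10 kb made up 220 of 2614 spacings (8.42%, 7.38 to 9.55%), where the even spread gives 33.1 (1.27%), a ratio of 6.65. Without the 3 dense groups 153 of 2544 spacings (6.01%, 5.12 to 7.01%) were as short, against 31.1, a ratio of 4.92. The excess was greatest at the shortest range. At most 1 kb apart were 85 neighbours against 3.33, and without the dense groups 47 against 3.13, a ratio of 15.03. At most 20 kb apart were 266 against 65.8, a ratio of 4.05. Close neighbours can be parts of a broader signal that the caller split, and that was not tested.

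**Figure D2:**
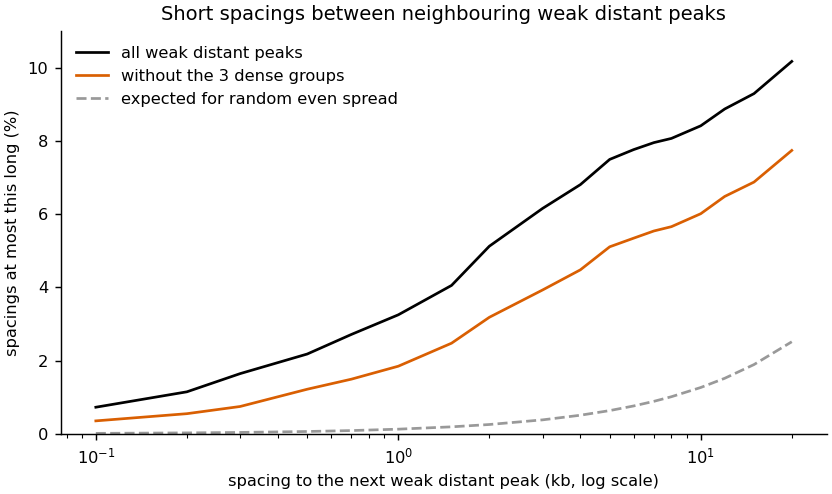
The horizontal axis gives the spacing between neighbouring weak distant peaks in kb on a log scale, and the vertical axis the percentage of spacings at most that long, for all peaks, without the 3 dense groups, and for a random even spread over the eligible length. At 10 kb the lines stand at 8.42%, 6.01% and 1.27%.

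Members in pairs, triples and the run of 4 were close to those standing alone in width and score. Their median width was 140 bp against 139 bp, their median score 56.73 against 56.66, and the genome-wide rate gave the score of 55.1% (49.2 to 60.9%) against 56.2% (54.1 to 58.2%). Fewer of them matched none of the rates, 10.5% (7.28 to 14.6%) against 16.7% (15.1 to 18.3%), and more were at a local rate, 23.5% (18.7 to 28.7%) against 16.8% (15.3 to 18.4%).

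The 3 dense groups differed from the other members in width and score. They held 70 members (2.66%) within 104 kb, which is 0.00492% of the eligible length. Their members had a median width of 305 bp and a median score of 66.41. At least 300 bp wide were 38 of the 70 (54.3%), against 58 of the 2563 others (2.26%). None of the 70 had a score at the genome-wide rate, for which the exact interval reaches 5.13%, and 94.3% matched none of the rates. No member at the genome-wide rate was wider than 238 bp, however, and the lower quartile of width in the dense groups was 250 bp. These 2 shares were not separated from width. No score occurred more than once within a group.

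The first group lay on chromosome 6 from 47604297 to 47635293 and held 29 members with a median width of 306 bp and a median score of 70.68. Among them stood 5 further knockout peaks scoring 100 or more, the highest at 136.66, and the nearest wild-type peak was 58.3 kb away. A second group followed after 51.8 kb, on chromosome 6 from 47687092 to 47725574, with 20 members of median width 303 bp and median score 67.25. It enclosed 9 knockout peaks scoring 100 or more, up to 285.23, and lay 59.1 kb from a wild-type peak. Both groups on chromosome 6 were therefore the weaker portion of clusters that also held strong knockout peaks.

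The third group, on chromosome 7 from 67002330 to 67036807, was made of weak peaks alone. It held 21 members with a median width of 334 bp and a median score of 59.81, with no knockout peak of 100 or more among them, and the nearest wild-type peak was 270 kb away. With knockout peaks of every score counted, since the score limit removes peaks from the groups on chromosome 6 only, the median distance between neighbouring centres was 1661 bp in this group, 807.5 bp in the first and 913 bp in the second. The coefficients of variation of these distances were 0.54, 0.67 and 0.66. Repeated sequence, copy number and input signal at these places were not tested.

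**Figure D3:**
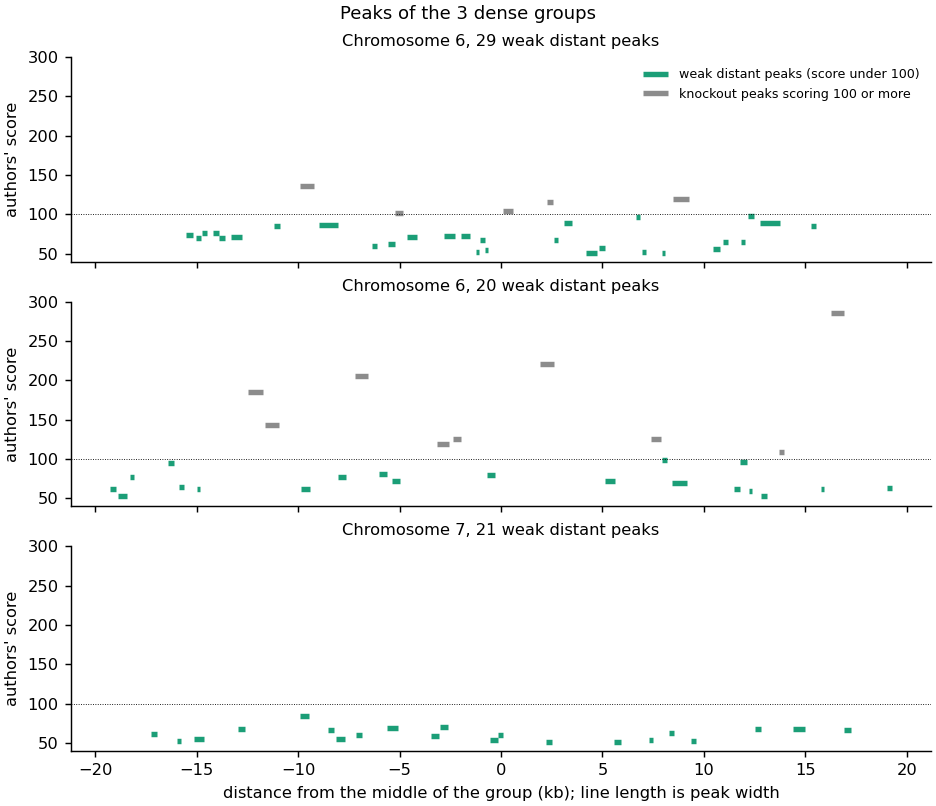
For each of the 3 dense groups, the knockout peaks are drawn as lines as long as the peak is wide, at their distance from the middle of the group in kb (horizontal axis) and their score (vertical axis), with weak distant peaks in green and peaks scoring 100 or more in grey. Grey peaks stand among the green ones in both groups on chromosome 6 (5 and 9 of them) and are lacking in the group on chromosome 7.

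The weak distant peaks were as dense, within counting error, in regions poor in wild-type sites as elsewhere. Of 2424 autosomal windows of 1 Mb, 259 held at most 1 wild-type peak. These windows made up 11.85% of the eligible length and held 312 members, 11.85% of them. The density was 1.25 members per eligible Mb in these windows (1.11 to 1.39) and 1.25 in the others (1.196 to 1.298), a ratio of 1.00 (0.886 to 1.13), or 1.03 (0.913 to 1.16) without the dense groups. Spreading each chromosome's members evenly over its own eligible length gives 311.8 members in these windows. Nor did the members differ there in kind, with a median width of 138 bp (137 to 140 bp) and 58.0% (52.3 to 63.6%) at the genome-wide rate, against 140 bp and 54.1% in the other windows.

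At the opposite end the density was lower. Without the dense groups it fell from class to class between 2 to 3 and 11 to 20 wild-type peaks, and the intervals of neighbouring classes overlapped. Windows with 0 wild-type peaks had 1.21 members per eligible Mb (0.958 to 1.51) and those with 2 to 3 had 1.29 (1.202 to 1.381). Windows with 4 to 6 had 1.25 (1.17 to 1.34), or 1.22 (1.14 to 1.31) without the dense groups. With all members counted, windows with 7 to 10 had the highest density, 1.31 (1.18 to 1.46), which became 1.14 (1.01 to 1.27) without the dense groups. Windows with 11 to 20 wild-type peaks had 1.03 (0.880 to 1.19) and those with 21 or more had 1.06 (0.829 to 1.33). Set against all windows with at most 10 wild-type peaks, those with 11 or more had 0.814 times the density (0.711 to 0.928), and 0.838 times (0.732 to 0.956) without the dense groups. The even spread within chromosomes gives 296.3 members there, against 246 found. The limit of 11 was chosen after the densities had been seen.

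**Figure D4:**
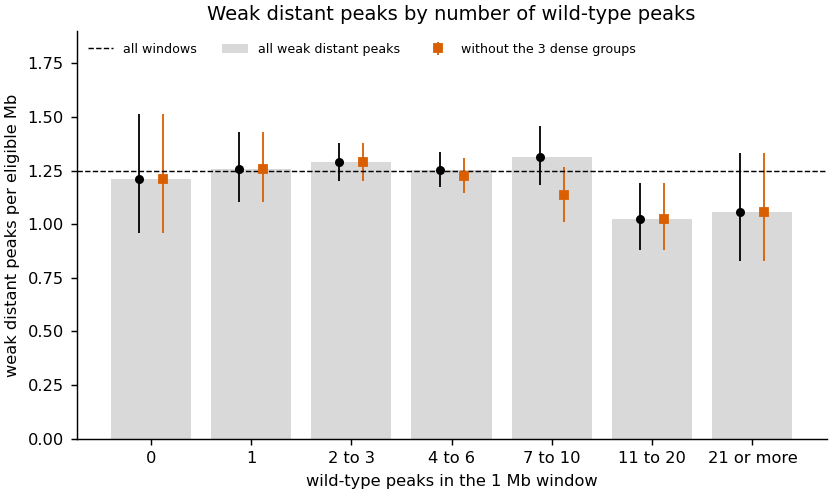
Bars and black points give the weak distant peaks per eligible Mb (vertical axis) in 1 Mb windows sorted by their number of wild-type peaks (horizontal axis), and orange squares the same without the 3 dense groups, with exact 95% Poisson intervals. The first 4 classes stand at 1.21 to 1.29, near the mean of 1.25 over all windows (dashed line), the fifth at 1.31, or 1.14 without the dense groups, and the last 2 classes at 1.03 and 1.06.

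Distance gave a similar picture. The median member lay 93.1 kb from the nearest wild-type peak (interquartile range 44.6 to 190 kb). More than 100 kb away were 1250 members (47.5%), where 45.0% of the eligible length lies. Weak knockout peaks numbered 18.9 per Mb on wild-type peaks. Next to them the density was lower, 1.82 per Mb (1.37 to 2.36) within 1 kb and 2.57 (2.02 to 3.22) at 1 to 2 kb, with a second maximum of 3.15 (2.77 to 3.56) at 2 to 5 kb. From there the density fell to 1.17 (0.985 to 1.38) at 5 to 10 kb and 1.01 (0.880 to 1.16) at 10 to 20 kb, where the members begin. It was 1.17 at 20 to 50 kb, 1.29 at 50 to 100 kb and 1.27 at 100 to 200 kb. At 200 to 500 kb it was 1.38 (1.27 to 1.505) and beyond 500 kb 1.24 (0.991 to 1.54). Without the dense groups it was 1.19 at 50 to 100 kb and 1.33 at 200 to 500 kb. Beyond 5 kb from wild-type sites the density of weak knockout peaks thus stayed between 1.01 and 1.38 per Mb.

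The most isolated members differed in width. The farthest from a wild-type peak, 1392 kb, lay on chromosome 2 from 176485039 to 176485174. It was 136 bp wide, within the interquartile range of the members, and scored 64.44, a count of 8 at the genome-wide rate. Next were chromosome 11 from 15199345 to 15199530 (186 bp, score 54.45), 1086 kb away, and chromosome 7 from 8655848 to 8656050 (203 bp, score 59.37), 1085 kb away. Both were wider than that range. The one on chromosome 11 matched none of the rates tried, and fixed counts above 6 steps were not tried.

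The longest stretches without a wild-type peak differed in how many members they held. The longest, 7.80 Mb on chromosome 7 from 38969603 to 46769466, held 3 members where an even spread over that chromosome gives 10.9. A stretch of 3.74 Mb on chromosome 8, from 19354289 to 23098988, held 8 against 4.96, among them the widest member. One of 2.997 Mb on chromosome 2, from 174880214 to 177876827, held 3 against 3.27, among them the most distant member. Gaps in the assembly and repeats in these stretches were not examined.

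Per 1 Mb window the members were somewhat more clumped than an even spread gives. Without the dense groups 980 windows held no member, against 858.5 expected, and 101 held 4 or more, against 60.2. The variance over windows was 1.30 times the mean, and 2.34 times with the dense groups. Outside the dense groups no window held more than 6 members, and the first 3 with 6 by position were chromosome 1 from 7000001 to 8000000, chromosome 1 from 70000001 to 71000000 and chromosome 4 from 5000001 to 6000000, each with 2 or 3 wild-type peaks.

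**Figure D5:**
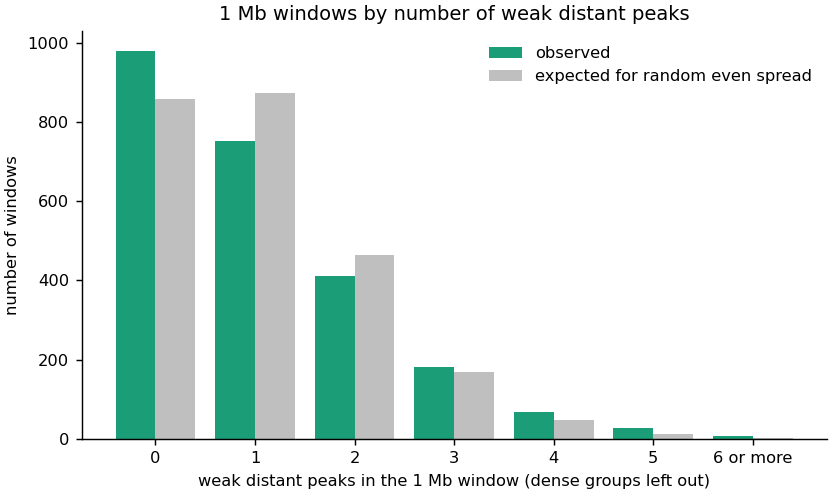
Paired bars give the number of 1 Mb windows (vertical axis) that hold 0 to 6 or more weak distant peaks (horizontal axis), observed without the 3 dense groups (green) and expected for a random even spread (grey). Observed windows exceed expected ones at 0 (980 against 858.5) and at 3 or more, and fall short at 1 (751 against 873.2).

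Every autosome carried weak distant peaks at a similar density. Chromosome 6 had most per eligible Mb, 1.68 (1.47 to 1.92), which became 1.31 without its dense groups, and chromosome 19 fewest, 0.929 (0.680 to 1.24). Without the dense groups the mean was 1.21, and the intervals of 17 of the 19 chromosomes held it, the exceptions being chromosomes 9 and 15, which lay below. Median widths per chromosome ran only from 137 to 143.5 bp. Chromosome ends were counted from the first and last peaks. The first 10 Mb, at the centromere end in mouse, held 1.59 members per eligible Mb (1.41 to 1.79, 268 members). The last 10 Mb held 1.04 (0.889 to 1.22, 162 members).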

How the data were processed

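The authors deposited 1 list of peaks per V5 library, with a score for each peak. The tools and build, per the submitters' processing notes, were Bowtie 0.12.8, MACS 1.4.2 and mm9, with no roles given. What control, filters, fragment size and settings the caller had is not given in the sources used here. A p-value scale is likewise not stated for the score and was read from its lowest values and the Poisson match described above.

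Distances and gaps are edge to edge, and positions are 1-based in mm9. Shares carry exact Clopper-Pearson intervals, densities exact Poisson intervals and ratios of densities intervals conditional on their sum, all at 95%. Expected numbers for an even spread come from a formula, with no random draws. The genome-wide rate of each list was found where most scores pile up, and a score matched when it lay within 0.006. The scripts were tested on simulated data. Scripts ran on Python 3.11.15 with scipy 1.17.1, pandas 2.3.3, matplotlib 3.10.9 and numpy 2.4.6.

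Named by position were each dense group (10 or more members with gaps of at most 10 kb), the 3 widest and 3 farthest members, the 3 scores held by most members with an example, the 3 longest stretches without wild-type peaks and the 3 windows with most members outside dense groups, ties going to the first by position. Members and rules were chosen with earlier results of these data known. Alternatives varied the score and distance limits, gap limits, window size and the limit of a wild-type-poor window, and left out the dense groups.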

Additional observations from a re-analysis of the deposited data

How the results depend on the processing

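Of 39 alternatives, 24 gave a value inside the 95% interval of the one reported (for the number of members, within 1.5 times of it), 15 moved and none reversed. The number of members (2633) was 1883 with peaks more than 50 kb away and 3039 with distance taken only from wild-type peaks scoring at least 100. With scores below 60 only, there were 1649 members, of median width 138 bp, with 88.5% tied and 56.8% at the genome-wide rate. The tied share (80.8%) was 83.7% for scores below 80, 77.1% for peaks more than 50 kb away and 96.3% with scores rounded to 1 decimal. Short spacings (8.42%) became 9.87% for peaks more than 50 kb away, 6.01% without the dense groups and 13.9% at a limit of 50 kb. The share of members in wild-type-poor windows (11.85%) became 41.7% with 500 kb windows, 1.37% with 2 Mb windows, 2.96% with windows free of wild-type peaks and 42.7% with at most 3 such peaks, and the eligible share moved with it (41.3%, 1.64%, 3.05% and 41.7%). The density ratio (1.00) became 0.833 (0.582 to 1.16) with 2 Mb windows, of which 19 were poor. Rounding and the longer spacing limit raise their shares by construction. For the others the cause was not tested. The alternatives for the genome-wide rate were chosen after seeing the data. No paired analysis was possible because no group has a second library, and for the same reason no replicate could be left out. Depth is unknown, so a peak that was not called was not detectable at this depth and threshold.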
